A study of Homo sapiens with 21 samples.

Results

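NCI-H1975, an EGFR-mutant lung cancer cell line, was compared with NL20, the normal lung control of the series, across all circular RNAs (circRNAs) counted often enough to be tested. The comparison used 6 of the 21 libraries: 3 of NCI-H1975 cells that carry neither a plasmid code nor a resistance code, and 3 of NL20. Of 124082 circRNAs in the deposited table, 9175 passed a filter on low counts that was applied over all 7 groups, and 124 of those had no read in either of the lines compared here.

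NL20 is an immortalized, nontumorigenic line of human bronchial epithelium, labelled with no mutation. Per the labels, all lines grew in RPMI with 10% fetal bovine serum, and passages ran from 20 to 30 for NL20 replicate 1 and from 20 to 31 for the other libraries. The remaining 15 libraries helped to estimate the spread, showed the levels of the same circRNAs elsewhere and gave a second comparison. They came from NCI-H1975 transfected with pCMV6 or with FASN (both under 50 µg/ml G418), NCI-H1975 resistant to osimertinib (kept at 1 µM), PC-9, which is another EGFR-mutant lung cancer line, and PC-9 resistant to gefitinib (kept at 1 µM). Osimertinib and gefitinib inhibit the EGFR kinase. The 3 libraries of a group are of 1 line, and the labels do not say whether they came from separate cultures. P-values thus rest on a spread between libraries of a group, which may be technical. In the edgeR test it was estimated over all 7 groups and, for most circRNAs, taken from the trend across circRNAs. With 1 line on each side, cancer against normal and the person or tissue each line came from cannot be told apart.

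A circRNA forms when the spliceosome joins the end of an exon to the start of an upstream exon, a reaction called back-splicing. It often relies on complementary sequences in the introns on either side. The product has no free ends, resists exonucleases and tends to outlive the linear transcript of its host gene. EGFR is a receptor tyrosine kinase of the epithelium whose activating mutations drive a share of lung adenocarcinomas. Identifiers in the table are running numbers that come with no gene, coordinate or sequence. No host gene or sequence is therefore given, at most 2 identifiers are printed for each direction, and neither line could be checked against its defining marker genes.

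The NL20 libraries held 175638, 203079 and 157660 reads and the NCI-H1975 libraries 138753, 148290 and 170423. The circRNAs tested took 73.6% to 74.2% of the reads of an NL20 library and 75.6% to 76.4% of those of an NCI-H1975 library. Over the compared libraries the median circRNA tested had 5.83 reads a library, which limits what could be seen. In a simulation of this comparison with 9175 circRNAs, 200 of them changed (all drawn from those averaging 5 reads or more), the test found 53% of the 4-fold and 10% of the 2-fold changes and made 7 false calls. A larger share was called in the data (16.3%) than was changed in the simulation. The adjusted threshold depends on that share, so the recovery is a guide only. Simulated counts were drawn at the fitted trend of the spread and tested with the same model. The 7 false calls therefore do not measure those in the data.

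NCI-H1975 and NL20 differed in many circRNAs, in both directions at nearly equal numbers. edgeR's quasi-likelihood test with Benjamini-Hochberg adjustment called 1500 of the 9175 (16.3%), of which 783 (8.53%) were higher and 717 (7.81%) lower in NCI-H1975. Before adjustment, 2586 circRNAs had a p under 0.05. Of the higher circRNAs, 230 had no read in any NL20 library, and of the lower ones 132 had none in any NCI-H1975 library. These 2 counts depend on the filter, which took in circRNAs of NCI-H1975 more readily. Of 808 circRNAs read in all 3 NCI-H1975 libraries and no NL20 library, 250 were tested. In the reverse case 155 of 1316 were tested, so the counts do not weigh gain against loss. Those read in both lines had a median fold of 4.73 among the 553 higher and of 4.42 among the 585 lower. A change of over 16-fold was fitted for 56 of the former and 44 of the latter, and a change under 2-fold for 45 and 35. The 3 libraries of one line lay all above the 3 of the other for 737 of the higher and 701 of the lower circRNAs, and for 35.3% of all circRNAs tested.

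**Figure D1:**
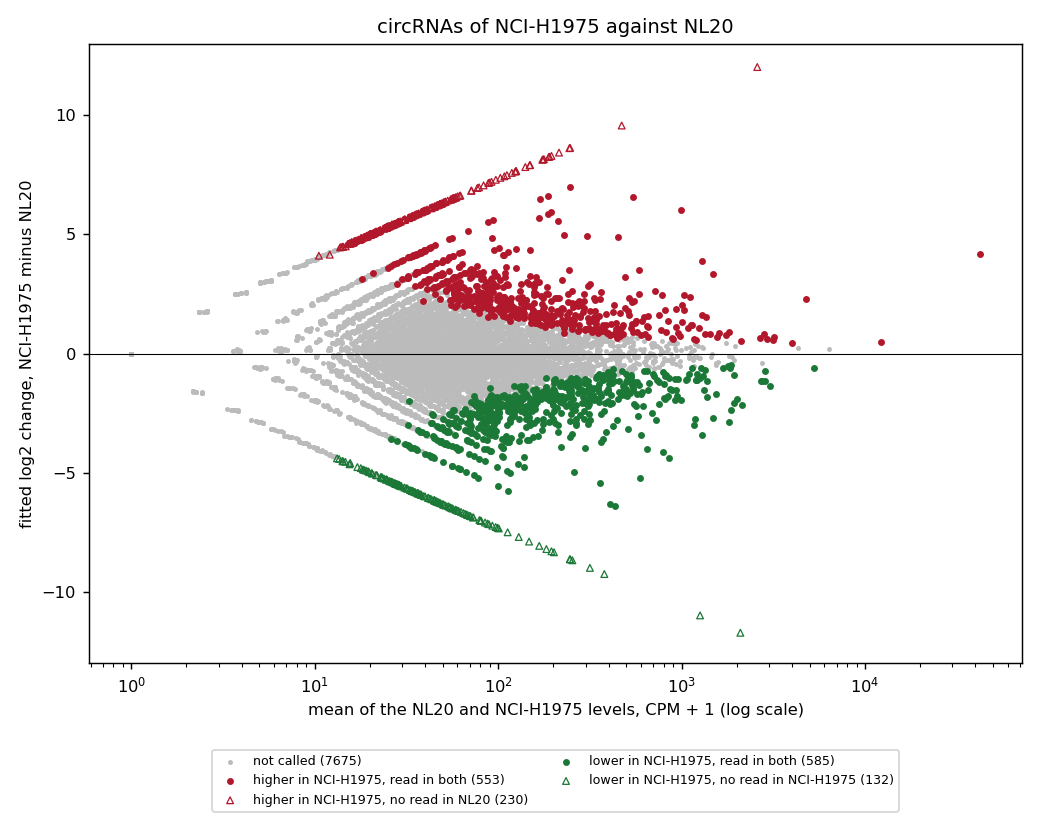
Fitted log2 change of each tested circRNA (NCI-H1975 minus NL20, vertical) against the mean of its levels in both lines (CPM + 1, log scale). Grey points were not called, filled red and green points were called and read in both lines, and open triangles were called with no read in one of the lines, where the fitted change depends on the prior count and is no bound. The 553 filled red and 585 filled green points lie at nearly equal numbers above and below 0, and the isolated red point at the far right is hsa_circ_11052.

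The number of calls fell with any compared library left out. The filter follows the smallest group, so these fits tested more circRNAs, 11364 to 11441 in place of 9175. Leaving out osimertinib-resistant replicate 2, which is not a compared library, also widened the tests, to 12188 circRNAs, and gave 1546 calls. Whether the added tests had a part in the fall was not tested. Leaving out NL20 replicate 1, NL20 replicate 2 or NCI-H1975 replicate 2 lowered it to 951, 952 and 985, and 647 of the 1500 (322 higher, 325 lower) were called in each of the 6 fits that left out 1 compared library. Testing all 124082 circRNAs without the filter left 565 calls, 265 higher and 300 lower.

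The 2 higher circRNAs with the smallest p were hsa_circ_11052 and hsa_circ_6671. The former was read in every library of the series. It stood at 3980, 4754 and 4499 CPM in NL20 (CPM are counts per 1 M scaled reads in the circRNAs tested, M being mega) and at 78660, 82350 and 80020 CPM in NCI-H1975. The lowest NCI-H1975 library was thus far above the highest NL20 library, and the spread within each line was small beside the gap. The change was 18.2-fold (log2 4.19 ± 0.10 SE), and its adjusted p in edgeR's quasi-likelihood test was too small for the software to store. In PC-9 it stood at 1961 ± 292 CPM (SD, n = 3), below every NL20 library. The other NCI-H1975 groups held 37340 ± 371 CPM of it with pCMV6, 79650 ± 2240 with FASN and 115000 ± 25600 with osimertinib resistance. Of the 9 tested circRNAs whose numbers lie within 10 of it, 7 were called higher in NCI-H1975 and none lower, beside 8.53% and 7.81% of all circRNAs tested. The other 3 named circRNAs had 2, 1 and 1 such neighbours tested, of which 1 each was called, in the direction of the named one. Numbers near the lower named circRNAs go to circRNAs read in NL20 replicate 1 and in no pCMV6 or FASN library. A lower call of a tested neighbour was thus favoured by the numbering there and is no support.

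hsa_circ_6671 was read in NCI-H1975 libraries alone. It had 519, 564 and 683 reads in NCI-H1975 and no read in NL20, where 0 of 536377 reads allows a share of up to 0.000559%. With a floor of 3 reads over the NL20 group it was at least 680-fold higher (edgeR adjusted p = 9.24e-192). PC-9 and gefitinib-resistant PC-9 had no read of it either. All of the other NCI-H1975 libraries held it, with 5482 ± 522 CPM in the FASN group (SD, n = 3), 1758 ± 327 in the pCMV6 group and 2085 ± 458 in the osimertinib-resistant group, beside 5173 ± 291 in the NCI-H1975 libraries compared here. The pCMV6 and osimertinib-resistant libraries lay below all those of NCI-H1975 and FASN cells.

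The 2 lower circRNAs with the smallest p were hsa_circ_64888 and hsa_circ_60454, and NCI-H1975 had no read of either. hsa_circ_64888 had 481, 627 and 534 reads in NL20, where it was the 6th most abundant circRNA at 4184 ± 492 CPM (SD, n = 3), and was at least 474-fold lower in NCI-H1975 (edgeR adjusted p = 4.84e-99). It was nearly limited to NL20 in this table, with 12 reads in PC-9, 1 in osimertinib-resistant NCI-H1975 and none in the other groups. hsa_circ_60454 had 312, 403 and 282 reads in NL20 and was at least 288-fold lower (edgeR adjusted p = 4.09e-88). It was missing from all NCI-H1975 groups but read in PC-9, at 643.2 ± 26.2 CPM (SD, n = 3), and in gefitinib-resistant PC-9, at 1731 ± 246 CPM, beside 2523 ± 253 CPM in NL20. These floors express counting error alone, because PCR copies were not told apart from separate molecules by identifiers. The direction and the call of all 4 circRNAs held under each of the 18 alternatives run for them. The size of the adjusted p depended on the setting. Its largest value for hsa_circ_11052 was 1.71e-23 (edgeR's quasi-likelihood test, minimum count 10). For the others it was largest in DESeq2's Wald test, at 7.83e-21 for hsa_circ_6671, 8.29e-19 for hsa_circ_64888 and 1.44e-16 for hsa_circ_60454.

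**Figure D2:**
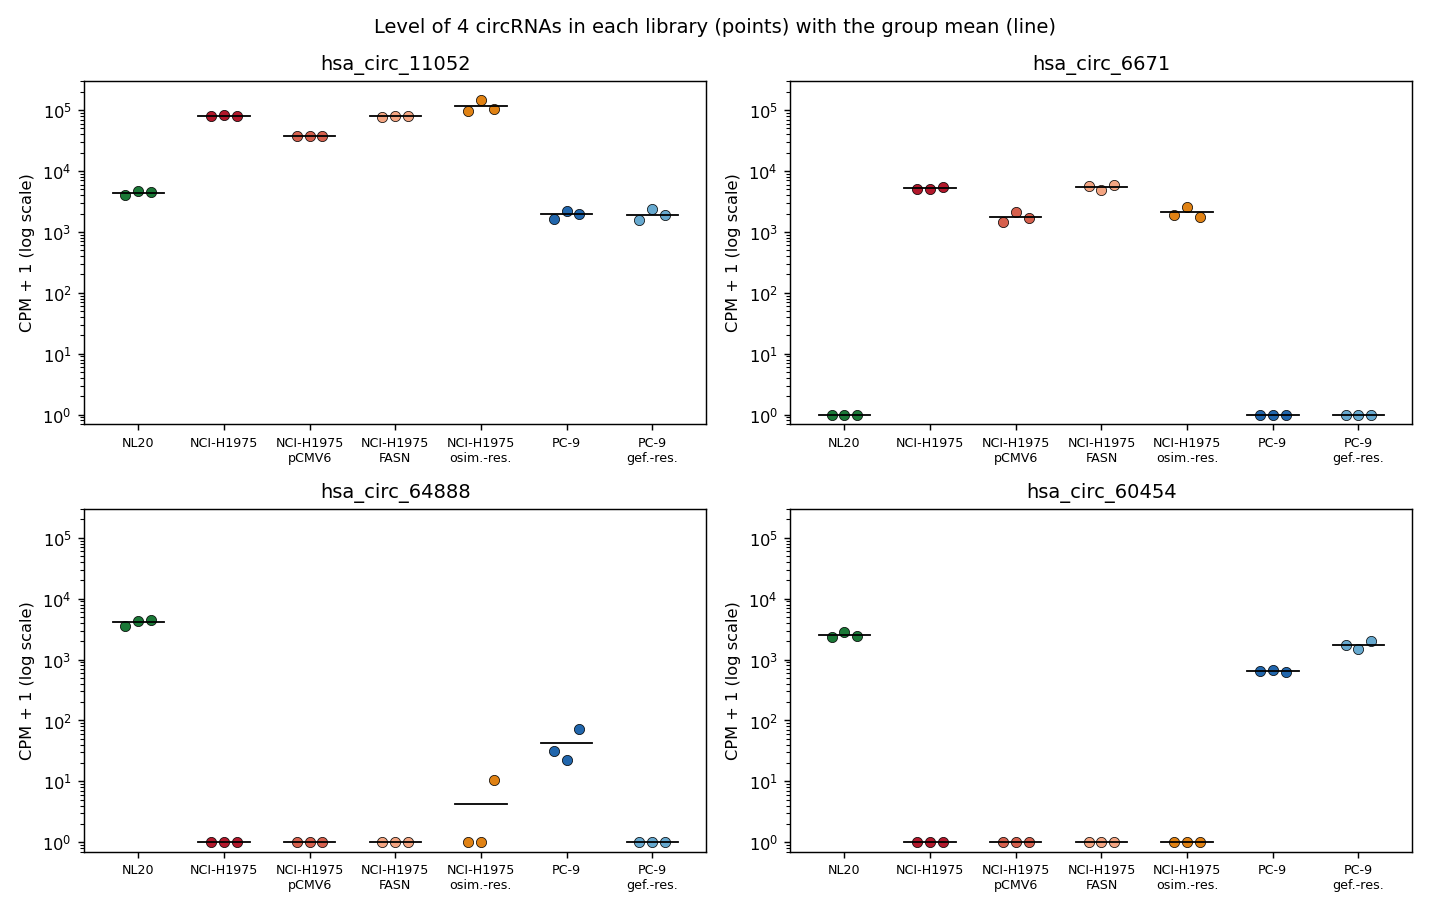
Level of the 4 named circRNAs in each of the 21 libraries (points, CPM + 1 on a log scale) with the group mean as a line. hsa_circ_6671 lies on the floor of the plot in NL20 and in both PC-9 groups and at 1470 CPM or more in every NCI-H1975 library, while hsa_circ_60454 lies on the floor in every NCI-H1975 library and is present in NL20 and both PC-9 groups.

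Abundant circRNAs were called most often and by the smallest margins. Among the 98 circRNAs with a mean of at least 1000 CPM over all 21 libraries, 37 were higher and 28 lower (66.3% called), with a median fold of 1.94. Among the 478 between 300 and 1000 CPM, 100 were higher and 111 lower (44.1%), with a median fold of 2.73. The share called was 30.4% between 100 and 300 CPM, 12.7% between 30 and 100 CPM and 7.36% of the 2499 below 30 CPM. In that last class the compared libraries held a median of 2.83 reads a circRNA, and the median fitted fold of the calls was 40.3, a value that depends on the prior count where a line had no read. The share of circRNAs fitted at 2-fold or more ran the other way, from 32.7% in the most abundant class to 60.2% in the least abundant, where counting error is largest.

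For few circRNAs could a near-equal level in both lines be shown. The 95% interval of the log2 change lay within a 2-fold change in either direction for 276 circRNAs (3.01% of those tested), which had a median of 52 reads a library. They made up 46.9% of the class above 1000 CPM and 30.1% of the class from 300 to 1000 CPM. Of the 276, 14 were also called, with changes smaller than 2-fold. For the other circRNAs that were not called, a 2-fold change was not excluded at this depth.

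The most abundant circRNAs of the lines overlapped in part. Of the 10 most abundant in each, 5 were common to both lists, and of the 100 most abundant 53. NL20's most abundant circRNA took 0.775%, 0.708% and 0.748% of the reads there. It was second in NCI-H1975, with 1.1%, 1.06% and 1.04%, and was called 1.42-fold higher (edgeR adjusted p = 0.000392). PC-9 held less of it, 0.225% ± 0.0278 (SD, n = 3). NL20's second circRNA went the other way, with 0.468% ± 0.0393 in NL20, 0.309% ± 0.00938 in NCI-H1975 and 0.723% ± 0.086 in PC-9, and was called 1.53-fold lower in NCI-H1975 (edgeR adjusted p = 0.000186). The next in rank, at 0.438% ± 0.0652 in NL20 and 0.508% ± 0.0334 in NCI-H1975, was not called, and its libraries overlapped between the lines. The circRNA at rank 3 in NCI-H1975 stood at rank 53 in NL20, with 0.12% ± 0.00892 of the reads against 0.591% ± 0.0139, and was called 4.86-fold higher (edgeR adjusted p = 3.36e-54).

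Of NL20's 100 most abundant circRNAs, 59 were called lower in NCI-H1975 and 14 higher. Of the 100 most abundant in NCI-H1975, 50 were called higher and 13 lower. A list of the most abundant circRNAs of one line is drawn from the same reads as the test and leans towards that line by its choice. Complete absence was rare among them, as 98 of NL20's 100 were read in NCI-H1975 and 99 of the 100 of NCI-H1975 were read in NL20.

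Reads were spread less evenly over circRNAs in NCI-H1975, in large part through hsa_circ_11052. The share in the 10 most abundant was 6.384 percentage points larger in NCI-H1975, and 0.9935 larger with that circRNA removed. Its single most abundant circRNA took 5.98% ± 0.216 of a library's reads (SD, n = 3), against 0.743% ± 0.0339 for the single most abundant one in NL20. The 100 most abundant held 20.4% ± 0.303 in NCI-H1975 and 15.4% ± 0.181 in NL20, a gap close to the difference that the first circRNA alone makes. At an equal depth of 95808 reads, 1366, 1304 and 1344 circRNAs held 50% of the reads of the NCI-H1975 libraries, against 1538, 1492 and 1568 in NL20. The difference was -194.7 circRNAs, with no overlap between the lines and an exact two-sided permutation p of 0.1, the smallest that 3 against 3 allows (0.133 after adjustment over 4 tests). It was -95.97 among the circRNAs tested, and it was not computed without hsa_circ_11052.

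The larger number of distinct circRNAs in NL20 rested on circRNAs with few reads. At equal depth the difference was -1477 (NCI-H1975 minus NL20, exact permutation p = 0.1, adjusted 0.133). Among the circRNAs tested the difference turned round, to 160.2 more in NCI-H1975. Counted with at least 2 reads, there were 11910 ± 39.6 in NCI-H1975 and 12000 ± 105 in NL20 (SD, n = 3), and the lines overlapped (exact permutation p = 0.3, adjusted 0.3). Among the circRNAs tested this difference turned round as well, to 128.3 more in NCI-H1975. Both reversals lie within a set that the filter drew from all 7 groups, most of them NCI-H1975 cells. Of the circRNAs tested, 521 had no read in NL20 and 362 none in NCI-H1975. Counts within that set thus lean towards NCI-H1975 and cannot tell which line holds more.

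**Figure D3:**
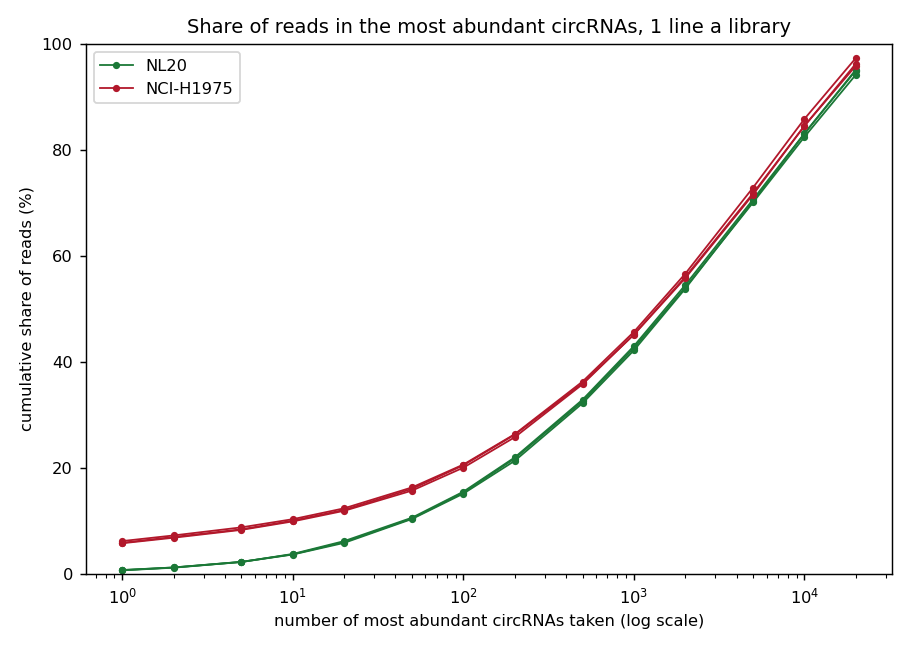
Cumulative share of a library's reads (vertical, %) in its most abundant circRNAs (number taken, log scale), 1 line a library. The NCI-H1975 lines start at 5.82% to 6.23% and the NL20 lines at 0.708% to 0.775%, and the curves draw together towards the right.

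Presence of a circRNA in one line and absence from the other was common at these depths and mostly concerned scarce molecules. In the full table, 808 circRNAs were read in all 3 NCI-H1975 libraries and in no NL20 library, with a median of 9 reads over the group, and 1316 in all 3 NL20 libraries and in no NCI-H1975 library, with a median of 8. NL20 libraries were deeper on average. With each library thinned to 95808 reads the numbers were 739 and 878, beside 4579 read in all 6. The 808 took 2.81% of the NCI-H1975 reads and the 1316 took 3.48% of the NL20 reads. The 6191 circRNAs read in all 6 libraries as deposited took 68.2% and 66.4%.

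A pair of libraries shared fewer circRNAs between the lines than within a line. At equal depth, 32% to 32.3% of the circRNAs found in either library of a pair were found in both within NL20 and 32% to 32.1% within NCI-H1975. For the 9 pairs made of 1 library of each line the range was 27.7% to 28.2%, below every pair within a line. The shared circRNAs held 75.2% to 76% of the reads between lines and 80.6% to 81.1% within them.

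The circRNAs called between NL20 and NCI-H1975 were also measured in the other groups of libraries. The 783 higher circRNAs held 6.61% ± 0.0621 of the reads in NL20 and 25% ± 0.514 in NCI-H1975 (SD, n = 3), the libraries whose contrast called them. In the other NCI-H1975 groups, which entered the filter and the estimate of the spread but not the contrast, the share was 24.4% ± 0.411 with FASN, 21.1% ± 0.195 with pCMV6 and 24.4% ± 2.94 with osimertinib resistance. Without hsa_circ_11052 the shares were 19% ± 0.304 in NCI-H1975 and 18.4% ± 0.309, 18.1% ± 0.178 and 15.8% ± 0.573 in those groups, against 6.29% ± 0.0772 in NL20. Osimertinib-resistant replicate 2, which stands apart from its group, held 27.78% with that circRNA and 16.41% without it.

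PC-9 stood between the lines for both sets. The higher circRNAs held 10.9% ± 0.146 of its reads (SD, n = 3) and the lower circRNAs 13.9% ± 0.0361, and gefitinib-resistant PC-9 was close to it with 12.4% ± 0.0709 and 13.8% ± 0.102. The lower circRNAs held 22.1% ± 0.137 in NL20 and 6.7% ± 0.276 in NCI-H1975. Their share was 7.25% ± 0.177 with FASN, 8.12% ± 0.267 with pCMV6 and 8.73% ± 0.679 with osimertinib resistance. The sets were chosen as differing between NL20 and NCI-H1975, so this place of PC-9 is a description with no test.

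**Figure D4:**
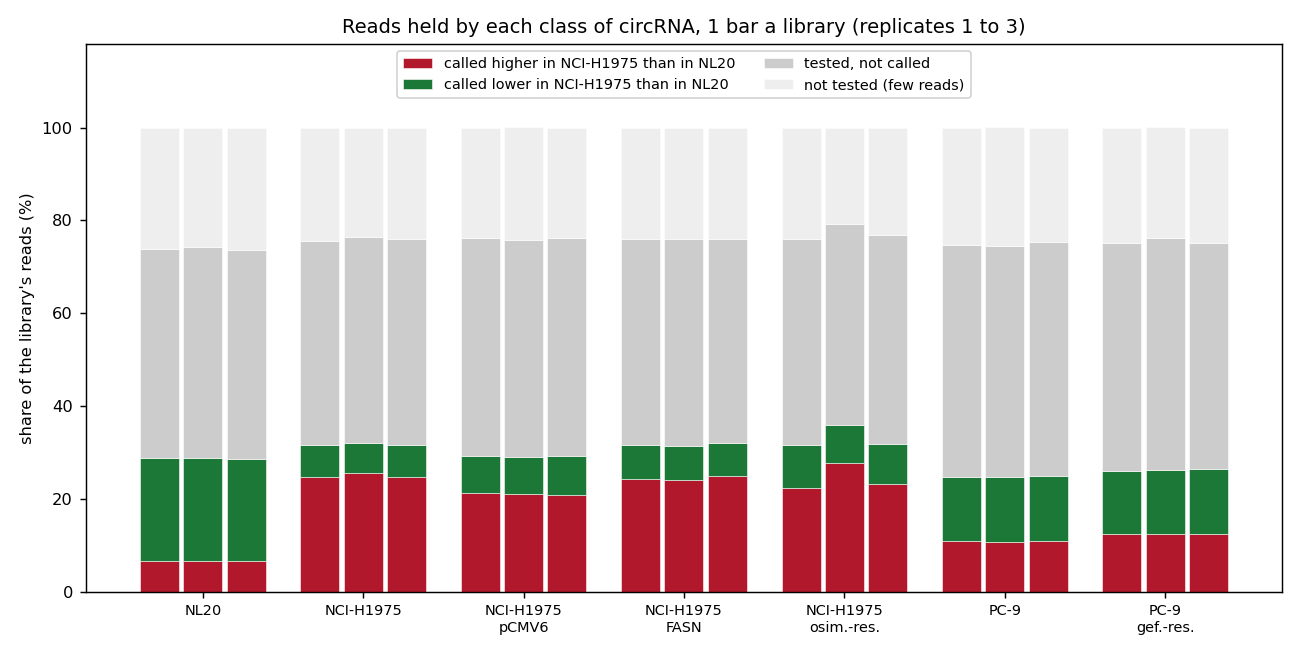
Share of each library's reads (%, 1 bar a library, 3 bars a group) held by circRNAs called higher in NCI-H1975 than in NL20 (red), called lower (green), tested but not called (grey) and not tested (light grey). Red takes 20.88% to 27.78% in all NCI-H1975 libraries, 10.71% to 12.47% in the PC-9 libraries and 6.544% to 6.664% in NL20.

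Median levels differed between the NCI-H1975 groups but lay in each of them on the NCI-H1975 side of PC-9. The median higher circRNA stood at 16.5 CPM in NL20, 139 in NCI-H1975, 122 in FASN cells, 113 in pCMV6 cells, 104 in osimertinib-resistant cells and 57.7 in PC-9. The median over all circRNAs tested lay between 43.8 and 46.8 CPM in every group. The median lower circRNA stood at 206 CPM in NL20, 35.3 in NCI-H1975, 49.8 in FASN cells, 50.6 in pCMV6 cells, 62.4 in osimertinib-resistant cells and 110 in PC-9.

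Absence was kept in part. Of the 132 circRNAs that were called lower with no read in NCI-H1975, 83 had none in FASN cells, 79 none in pCMV6 cells, 61 none in osimertinib-resistant cells and 27 none in PC-9. Of the 230 called higher with no read in NL20, 69 had none in PC-9, while 1 had none in FASN cells and 7 each had none in pCMV6 and osimertinib-resistant cells. Members had as few as 7 reads in NCI-H1975 among the 230 and 10 in NL20 among the 132. With a minimum total of 15 reads, such members passed the filter only through other groups. Presence in those groups was thus partly set by the filter, and the 2 sets cannot be compared by it.

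A comparison that shares no library with NCI-H1975 against NL20 set the mean of pCMV6 and FASN cells against PC-9. edgeR's quasi-likelihood test called 2298 of the 9175 circRNAs there (25%), 976 higher (10.6%) and 1322 lower (14.4%). Before adjustment, 3270 had a p under 0.05. Of the 783 circRNAs higher in NCI-H1975 than in NL20, 328 (41.9%) were also called higher in those cells than in PC-9 and 63 (8.05%) were called lower. Of the 717 lower circRNAs, 295 (41.1%) were called lower and 29 (4.04%) higher. The median log2 change there was 1.12 for the higher set, -1.05 for the lower set and -0.03 for all circRNAs tested. Without the filter on low counts that comparison called 1132. Both comparisons came from the same fit and the same filter over all 7 groups. Called circRNAs with few reads in NCI-H1975 and NL20 passed that filter through other groups, which include those compared here. The overlap is thus partly set by the filter and is a description.

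Changes in NCI-H1975 came in groups of neighbouring identifiers. The numbers run from 1 to 124082 in the order of the first library, by column, that holds a read of the circRNA, with 0 exceptions. What orders them among circRNAs with the same first library is not stated, and successive numbers nearly always share that library. For the 3353 pairs of tested circRNAs with successive numbers, the log2 changes had a Spearman correlation of 0.413 and a Pearson correlation of 0.483. The Spearman correlation was 0.291 at a distance of 2 numbers, 0.143 at 10 and 0.0543 at 200. Among circRNAs first read in pCMV6 replicate 1 alone, a restriction added after the data were seen, it was 0.415 for 3143 successive pairs and 0.0536 at 200. These are correlations across circRNAs that share the same 6 libraries, and circRNAs are not independent replicates. Where a circRNA was called higher, its successor was called higher in 32.4% of cases and lower in 1.59%, and at a distance of 200 numbers the shares were 14% and 5.73%, beside 8.53% and 7.81% of all circRNAs tested. Where it was called lower, its successor was lower in 30.9% and higher in 3.55%. Of the 204 successive pairs with both members called, 102 were higher, 87 lower and 15 had opposite directions.

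**Figure D5:**
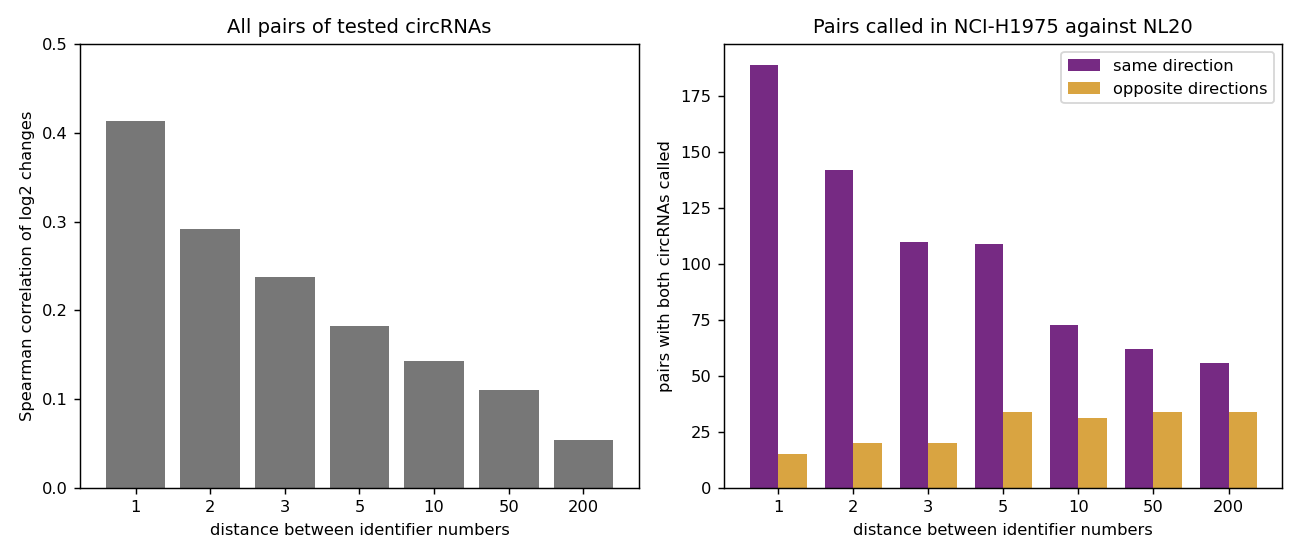
Left, Spearman correlation of the log2 change (NCI-H1975 minus NL20) over pairs of tested circRNAs at 7 distances between their identifier numbers. Right, number of pairs with both circRNAs called, in the same direction (purple) or in opposite directions (ochre), with 189 against 15 at a distance of 1 and 56 against 34 at a distance of 200.

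The longest unbroken series of successive numbers called one way had 6 higher circRNAs. Together they had 97, 75 and 121 reads in the NCI-H1975 libraries, with 12 to 130 reads for a member, and no read in NL20. They had 206 reads in pCMV6, 214 in FASN and 158 in osimertinib-resistant cells and none in either PC-9 group, so that the reads of all 6 were found in NCI-H1975 libraries alone. Of the lower circRNAs, the longest series had 4 members, and there were 2 such series. One had 109, 164 and 129 reads in NL20 and no read in any NCI-H1975 or PC-9 library. Its numbers are among those first read in NL20 replicate 1, which by the numbering have no read in pCMV6 or FASN cells. The other had 154, 269 and 153 reads in NL20, 11, 8 and 16 in NCI-H1975 and 176, 255 and 183 in PC-9, and was thus low in NCI-H1975 while NL20 and PC-9 held similar numbers. These series were picked by their length after the calls were known, and their values are a description.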

How the data were processed

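Per the labels' protocols, circular RNA was purified from total RNA, and made into libraries, by the sequencing provider. The deposited values are raw counts of reads per circRNA; the submitters' processing notes name hg38, HISAT2 and DESeq2 without versions or roles. For the circRNA caller and its filters: not given in the sources used here. Each of the 21 columns matched 1 sample by name.

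The counts were then tested with edgeR 4.0.16 (R 4.3.3). Its filterByExpr (minimum count 5, minimum total 15) and TMM scaling preceded a robust quasi-likelihood fit with 1 mean for each of the 7 groups. P-values were adjusted by Benjamini-Hochberg over all circRNAs tested and called under 0.05. The SE is the log2 change divided by the square root of its F statistic. The spread was for most circRNAs taken from the trend across circRNAs. Named circRNAs are the 2 with the smallest p in each direction whose libraries do not overlap. Numbers of distinct circRNAs are expected values under thinning, and the number that holds 50% of the reads is a mean of 20 draws. No library copied another (chi-square per degree of freedom 2.1 to 2.43 within the lines). The members and tests were chosen with earlier results of these data known. Alternatives were DESeq2 1.42.0, other filters and scalings, a replicate block, fits of fewer libraries and thinning.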

Additional observations from a re-analysis of the deposited data

Results flagged for a closer look

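Osimertinib-resistant NCI-H1975 libraries entered neither contrast, though they entered the filter and the estimate of the spread. In each of them 2 of the named circRNAs stood above every NL20 library. hsa_circ_11052 had a mean of 115000 CPM there, with 144200 in replicate 2 and 96240 and 104500 in the others, against at most 4754 in NL20. hsa_circ_6671 had a mean of 2085 CPM there and no read in NL20.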

How the results depend on the processing

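For NCI-H1975 against NL20, no call became a call of the opposite direction under any alternative run (1 had its fitted direction turned, uncalled, without NCI-H1975 replicate 2), and 52.2% of the calls were higher circRNAs, against 46.9% to 54.7% over the alternatives. The count of 1500 became 565 without the filter, where 124082 circRNAs were tested, and 951 to 1064 with 1 compared library left out. For pCMV6 and FASN cells against PC-9 the count of 2298 became 1132 without the filter and 1592 to 2215 with a library left out. DESeq2 gave 1548 and 2224 calls, and 1400 and 2088 of these were calls of edgeR in the same direction. Thinning all libraries to 95808 reads, chosen after the data were seen, gave 1142 and 1854. Leaving out osimertinib-resistant replicate 2, also added later, gave 1546 and 2499. Fits with a library left out tested more circRNAs than the main fit, here 12188. Same-numbered NL20 and NCI-H1975 libraries did not deviate together (correlations -0.0122, -0.00416 and -0.0156), so the numbers are not taken as pairs. With the replicate block the counts were 1392 and 2121 in the fit of all libraries, and 1540 and 1644 in fits of the compared libraries alone. Without the block, the fits of the compared libraries alone gave 1756 (855 higher, 901 lower) and 1747. The difference in distinct circRNAs turned from -1477 to 160.2, and with at least 2 reads from -90.7 to 128.3, when only the circRNAs tested were counted. The circRNAs tested lean towards NCI-H1975 through a filter over all 7 groups, so this turn cannot tell which line holds more. The cause was not tested. Depth limits the rest: in the simulation 10% of the 2-fold changes were found. Among circRNAs of at least 1000 CPM, 66.3% were called between NCI-H1975 and NL20, with a median fold of 1.94.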

Other observations

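Most circRNAs of either line were too scarce to be tested. Of the 75418 circRNAs read in the 6 libraries, 28134 were read in NL20 alone of the lines compared and 21130 in NCI-H1975 alone, each with a median of 2 reads, and they took 13.8% and 12.1% of the reads of their line. Of those read in NCI-H1975 and not in NL20, 9679 (45.8%) were read again in pCMV6, FASN or osimertinib-resistant cells and 4909 (23.2%) in PC-9. Of those read in NL20 and not in NCI-H1975, 9836 (35%) were read in those other NCI-H1975 groups and 6283 (22.3%) in PC-9. Those groups have 9 libraries and PC-9 has 3, so the shares are not on equal terms. With gefitinib-resistant PC-9 added to PC-9 the counts were 7097 and 9159. Of all 75418, 56.7% were read in those NCI-H1975 groups and 39.4% in PC-9.

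The 808 circRNAs read in all 3 NCI-H1975 libraries and in no NL20 library were in part read in PC-9, which held 460 of them (56.9%). In other NCI-H1975 groups 773 (95.7%) were read again, and 86 (10.6%) in all 9 of those libraries. PC-9 has fewer libraries than these groups, so the shares are not on equal terms. With gefitinib-resistant PC-9 added to PC-9, 555 of the 808 were read. Of the 1316 read in all 3 NL20 libraries and in no NCI-H1975 library, 947 (72%) were read in at least 1 of those 9 libraries and 198 in no other library of the series.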
